A study of Mus musculus with 86 samples.

Results

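Spermatocytes purified from adult testes were compared between *Btbd18* knockout and heterozygous mice. The comparison used 6 of the 86 samples of the series: 3 libraries from homozygous knockouts and 3 from heterozygotes, and every one of the 24276 features of the spermatocyte count table (24062 genes, 100 intergenic piRNA loci and 114 piRNA loci named after a gene) entered it. The animals of both groups were 4 months old and of the same C57BL/6 (B6) X 129/SvJ hybrid background, and the heterozygous animals, which served as controls, carried 1 mutant allele themselves. How the cells were purified, and whether each library came from its own animal, is not given in the sources used here, so a p-value below covers only how far these 6 libraries scatter, which may be technical. Whole testes at postnatal days 14, 18 and 28 (P14, P18, P28; 2 or 3 libraries per genotype and age, here 10 heterozygous and 10 knockout libraries with those of P10) and purified round spermatids (3 per genotype, 4 months old) of the same genotypes were used to look up features called in spermatocytes.

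*Btbd18* encodes a nuclear protein with a BTB domain. Spermatocytes are the germ cells that pass through meiosis. In the pachytene stage of meiotic prophase they transcribe long precursor RNAs from intergenic piRNA loci, which are cut into the small RNAs that bind PIWI proteins such as PIWIL1 (MIWI). The transcription factor A-MYB, the product of *Mybl1*, drives many of these loci. After meiosis the cells become round and then elongating spermatids, which express acrosome, tail and chromatin-packing genes.

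The 6 libraries held 0.322 to 0.514 M counts each (M, mega), against 5.82 to 12.3 M in testis libraries, and 8261 features had no count in any of them. *Btbd18* had 0 or 1 count in each spermatocyte library, so this gene could not check the genotype labels. Markers of other testis cells were mixed. *Insl3* of Leydig cells and *Acta2* of peritubular cells had 0 counts in every library and *Clu* of Sertoli cells had 0 to 2. No library had a count for 9 of 20 Sertoli, 6 of 12 Leydig and 3 of 15 peritubular, endothelial and fibroblast markers. Others on these lists did have counts: *Star* of Leydig cells had 224 to 326, *Tagln* of peritubular cells 137 to 260 and *Dhh* of Sertoli cells 42 to 163. Summed levels were 545 to 793 CPM (TMM-scaled counts per M) for the Leydig list, 415 to 671 CPM for the peritubular, endothelial and fibroblast list and 102 to 377 CPM for the Sertoli list. Spermatocyte genes were present at modest counts, with 72 to 196 for *Sycp3* of the synaptonemal complex and 165 to 645 for *Ldhc*, the testis lactate dehydrogenase. Heterozygous replicate 3 stood apart: its TMM scaling factor was 1.18 (0.945 to 1.02 in the others), its Spearman correlation with heterozygous replicate 1 across tested features was 0.706 (0.850 to 0.885 between knockout libraries), and it had 463 counts for *Piwil1* against 80 to 147 elsewhere.

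The assignment of reads to genes limits what each value means. The spermatocyte libraries were made with a kit that keeps the strand of the RNA, whereas the testis kit does not, and the strand setting of the counting is not given in the sources used here. Of a spermatocyte library's counts on the 17854 features whose strand RefSeq gives, 61.2% to 67.9% (median 67.7%) lay on features that a RefSeq gene on the other strand overlaps, against 47.1% to 55.5% in round spermatids and 28.0% to 31.2% in testes. Such overlapped features made up 4724 of the 17854 (26.5%). Of the 40 most abundant features 35 were so overlapped in spermatocytes and 10 in testes. *Actb*, the abundant cytoskeletal actin gene, had 16 to 38 counts in spermatocyte libraries and 4221 to 18241 in testis libraries. A feature's reads therefore cannot be assigned to its own strand or to the other. The marker counts above and all results below, gene lists included, are therefore reads counted at a feature. They need not be expression of the gene it is named after. The overlapping gene is named for most of the features described. A feature whose strand RefSeq does not give, such as *Tmem82*, *Myo18b*, *Mroh5* or *Rarres2*, could not be checked for an overlap. Nor could any intergenic or genic piRNA locus, so which strand was counted at the loci is unknown. In bulk RNA, fewer cells of a kind and less RNA per cell cannot be told apart.

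**Figure D1:**
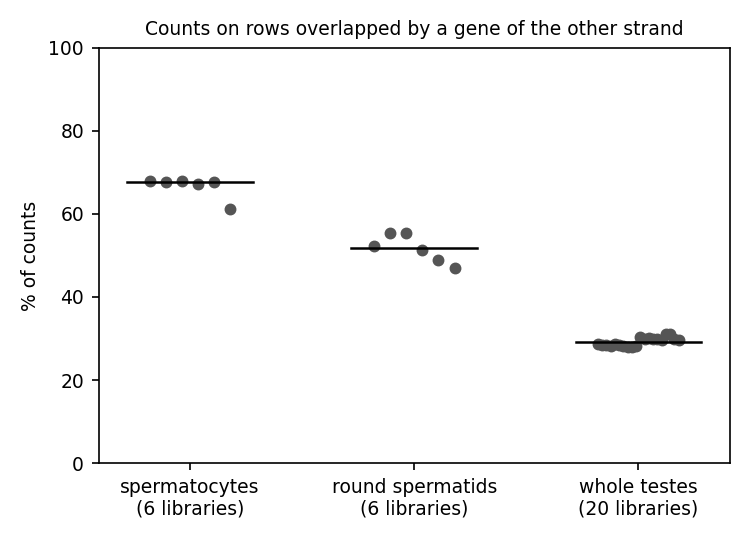
Share of each library's counts on features of known strand (y axis, percent) that lay on features overlapped by a RefSeq gene of the other strand, with 1 point per library and a line at the median. All 6 spermatocyte libraries lie at 61.2% or above, whereas the 20 testis libraries lie at 31.2% or below.

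In knockout spermatocytes 131 features were lower (2.84% of the 4618 tested) and 93 were higher (2.01%) than in heterozygotes (edgeR quasi-likelihood test, adjusted p below 0.05). The falls were 94 genes, 35 intergenic piRNA loci and 2 genic loci, and the rises were 92 genes and 1 intergenic locus. Falls were the larger: their median log2 fold change was -3.22, against 1.67 for the rises and -0.11 for all tested features. The 2 genotypes did not overlap over the 3 libraries each in 129 of the 131 falls and 91 of the 93 rises. Over all features tested this held for 1065 of 4618, and the calls were made from these same libraries. The counts rested on single libraries: without knockout replicate 2 there were 22 falls and 2 rises, without knockout replicate 1 61 and 12, without heterozygous replicate 2 108 and 24, without heterozygous replicate 1 153 and 274, and without heterozygous replicate 3 269 and 129. All 22 falls that stayed without knockout replicate 2 were among the 131, 8 of them genes and 14 intergenic loci.

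**Figure D2:**
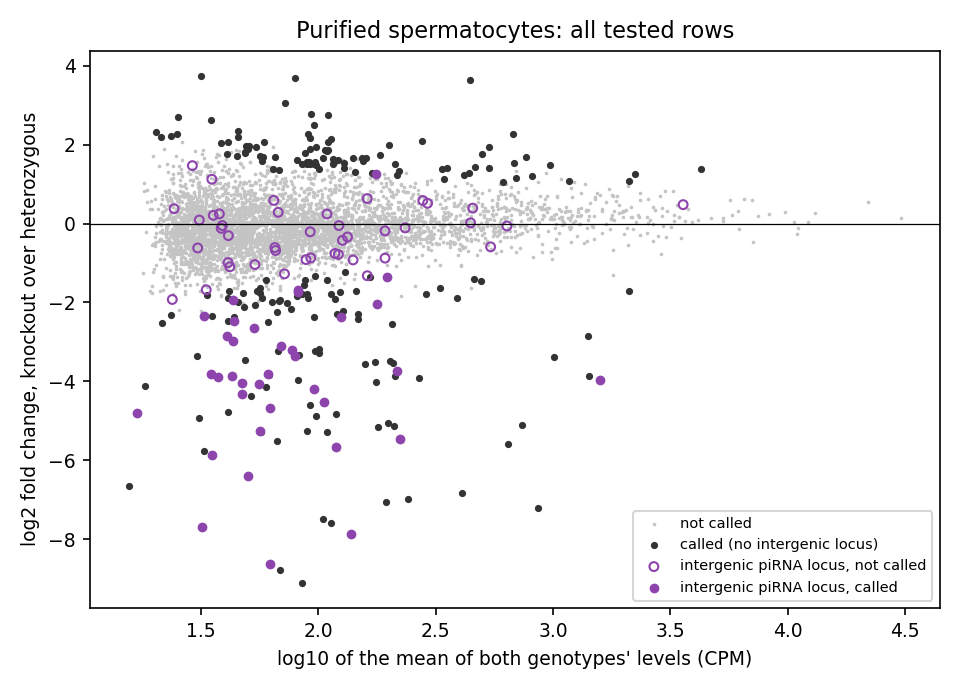
Log2 fold change of knockout over heterozygous spermatocytes (y axis) against the log10 of the mean level of both genotypes in CPM (x axis) for the 4618 tested features, with intergenic piRNA loci in purple and called features filled or dark. Most called intergenic loci lie far below 0, and falls reach lower values than rises reach higher ones.

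Among genes that are no piRNA locus, the falls with the smallest p were at 7 whose reads were abundant in all 3 heterozygous libraries. *Gldnos*, a long noncoding RNA gene (chromosome 9, 54268580 to 54301570, build GRCm38.p6), had 772, 611 and 653 counts in heterozygotes and 5, 2 and 6 in knockouts. Its log2 fold change was -7.21 ± 0.41 (SE, adjusted p = 2.86e-08, edgeR). *Stox1*, which encodes a winged-helix protein (chromosome 10, 62659043 to 62726094), had 504, 445 and 565 counts against 12, 10 and 8 (-5.58 ± 0.34, adjusted p = 4.35e-08, edgeR). Both thus went from abundant to nearly absent, with no overlap between genotypes. *Fam174b*, which encodes a small membrane protein, had 768, 423 and 577 counts against 10, 24 and 13 (-5.09 ± 0.40, adjusted p = 9.68e-07, edgeR). *Gm5577*, a long noncoding RNA gene close to the linker histone gene *H1fx* on the other strand, had 1243, 912 and 1048 counts against 68, 51 and 90 (-3.87 ± 0.32).

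*Kcnk10*, the gene of the potassium channel TREK-2, had 131, 111 and 243 counts in heterozygotes against 5, 1 and 7 in knockouts (-5.06 ± 0.47). *Zfp820*, a zinc finger gene overlapped by *Gm31758*, had 773, 607 and 865 against 80, 89 and 34 (-3.38 ± 0.35). *Ranbp6*, of the importin-beta family, had 1415, 850 and 695 against 162, 109 and 126 (-2.86 ± 0.33). In all 7 every heterozygous library was far above every knockout library. Of the 6 whose strand RefSeq gives, *Zfp820* alone is overlapped by a gene of the other strand. Each of the 7 stayed called under every alternative that tested it, those leaving out 1 library included. In whole testis only *Zfp820* and *Ranbp6* of the 7 were called lower at P18 (-2.29 and -0.68), and *Ranbp6* alone at P28 (-1.29), while *Fam174b* was at 0.00 at P18. *Gldnos*, *Stox1*, *Gm5577* and *Kcnk10* did not pass the low-count filter in testis.

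Promoters are shown for the 4 genes with the smallest p in each direction that have a RefSeq promoter. The bases are those before the transcript start that this table uses, 5′ to 3′ on the gene's own strand (GRCm38.p6). At *Ghdc* the last of them lie inside the gene's annotated span, which reaches further. They were searched on both strands for CAGTTG (the core bound by MYB proteins), TGACGTCA (CRE), GTTGCCA (part of the RFX X-box) and CACGTG (an E-box). A match would stand in capitals, and none of the 8 windows has one.
Stox1 (chr10:62726095-62726344, minus strand): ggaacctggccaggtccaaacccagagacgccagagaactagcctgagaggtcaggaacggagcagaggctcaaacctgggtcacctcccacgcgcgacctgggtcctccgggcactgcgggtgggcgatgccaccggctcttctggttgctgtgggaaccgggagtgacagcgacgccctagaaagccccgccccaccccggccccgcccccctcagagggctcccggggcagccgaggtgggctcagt
Fam174b (chr7:73740057-73740306, plus strand): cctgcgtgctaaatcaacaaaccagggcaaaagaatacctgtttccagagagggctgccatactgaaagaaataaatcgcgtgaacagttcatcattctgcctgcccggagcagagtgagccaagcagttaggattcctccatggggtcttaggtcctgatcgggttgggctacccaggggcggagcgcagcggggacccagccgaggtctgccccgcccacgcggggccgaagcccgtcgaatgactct
Gm5577 (chr6:87981433-87981682, plus strand): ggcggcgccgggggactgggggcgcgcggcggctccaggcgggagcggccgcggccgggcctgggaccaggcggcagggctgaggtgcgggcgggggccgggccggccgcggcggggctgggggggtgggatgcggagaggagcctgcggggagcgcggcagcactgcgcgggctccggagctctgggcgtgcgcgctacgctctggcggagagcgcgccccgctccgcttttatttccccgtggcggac
Kcnk10 (chr12:98578214-98578463, minus strand): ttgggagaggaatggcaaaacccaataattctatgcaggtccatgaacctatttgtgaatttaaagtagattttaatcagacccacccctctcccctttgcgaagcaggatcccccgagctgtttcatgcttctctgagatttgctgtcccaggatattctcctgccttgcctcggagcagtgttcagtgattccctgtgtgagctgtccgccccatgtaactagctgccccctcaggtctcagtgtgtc
Errfi1 (chr4:150853546-150853795, plus strand): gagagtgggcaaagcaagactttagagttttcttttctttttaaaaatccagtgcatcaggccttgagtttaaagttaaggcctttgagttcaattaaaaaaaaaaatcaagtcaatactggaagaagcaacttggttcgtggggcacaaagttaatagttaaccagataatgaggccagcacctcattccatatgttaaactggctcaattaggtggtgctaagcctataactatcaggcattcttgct
Kndc1 (chr7:139894446-139894695, plus strand): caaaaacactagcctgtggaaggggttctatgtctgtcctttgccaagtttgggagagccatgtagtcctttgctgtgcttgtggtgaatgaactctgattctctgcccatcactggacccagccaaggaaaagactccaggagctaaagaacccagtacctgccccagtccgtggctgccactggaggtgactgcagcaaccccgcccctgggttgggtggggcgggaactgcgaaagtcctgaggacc
Tmem102 (chr11:69805625-69805874, minus strand): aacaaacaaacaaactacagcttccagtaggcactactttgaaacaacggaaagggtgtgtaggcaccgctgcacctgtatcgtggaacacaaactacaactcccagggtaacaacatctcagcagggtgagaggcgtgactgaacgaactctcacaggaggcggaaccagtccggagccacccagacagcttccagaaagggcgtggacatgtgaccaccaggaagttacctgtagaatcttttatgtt
Ghdc (chr11:100770958-100771207, minus strand): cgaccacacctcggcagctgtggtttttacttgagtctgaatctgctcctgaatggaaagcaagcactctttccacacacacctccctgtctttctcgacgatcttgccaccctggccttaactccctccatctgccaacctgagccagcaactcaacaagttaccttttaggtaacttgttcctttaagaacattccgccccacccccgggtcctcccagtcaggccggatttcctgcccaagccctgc
The first 4 belong to falls and the last 4 to rises, and their GC content ran from 38.0% at *Errfi1* to 81.6% at *Gm5577*. RefSeq promoters were found for 78 of the 94 genes that fell and 65 of the 92 that rose. CAGTTG was present in 4 of the 78 (5.13%) and 3 of the 65 (4.62%), against 11.1% of all 27025 promoters of this length and 9.32% of the 3392 promoters of genes tested here. TGACGTCA was in 3 (3.85%) and 0, against 1.62% and 2.48%, GTTGCCA in 1 (1.28%) and 3 (4.62%), against 3.69% and 3.74%, and CACGTG in 2 (2.56%) and 2 (3.08%), against 6.05% and 8.37%. Median GC content was 58.2% for the falls, 61.6% for the rises, 60.4% for the genes tested and 52% for all promoters. These letters say nothing about whether a factor binds there.

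The other leading falls had most of their reads in heterozygous replicate 1. Reads counted at *4930542D17Rik*, which *Ccdc54* overlaps on the other strand, numbered 420, 118 and 46 in heterozygous replicates 1 to 3 and 1, 1 and 2 in knockouts (-6.99 ± 0.84, adjusted p = 1.01e-04, edgeR). *Gm16325*, overlapped by *4930503B20Rik*, had 778, 166 and 65 against 4, 2 and 2 (-6.82 ± 0.84). *Muc20*, a mucin gene overlapped by another, *Muc4*, had 193, 41 and 26 against 1, 0 and 0 (-7.48). Knockout libraries were near 0 in each, and heterozygous replicate 1 was at least several times higher than replicate 3.

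*Eci3*, of fatty acid oxidation, lies under *4933417A18Rik* and had 215, 41 and 25 counts against 0, 0 and 1. *BB031773*, overlapped by *Tctex1d1*, had 190, 49 and 20 against 3, 2 and 1. *Tmem82* had 372, 73 and 33 against 1, 0 and 2. *Myo18b*, an unconventional myosin gene, had 304, 87 and 36 against 5, 1 and 5, and *Gm19461*, overlapped by *Plekha6*, 394, 72 and 45 against 4, 6 and 3. The same order of the heterozygous libraries recurred at *Icmt*, which encodes the methyltransferase that caps prenylated proteins, with 300, 83 and 79 counts against 11, 7 and 20 (-3.48 ± 0.53). *Aldh1l1*, of folate metabolism and overlapped by *Gm15756*, had 154, 37 and 19 counts against 0 in all knockouts. This makes it at least 65.5-fold lower (a floor of 3 counts over the group). *Mroh5* had 128, 27 and 15 against 0, at least 52.5-fold lower. *Slc25a25*, a mitochondrial carrier gene overlapped by *Naif1*, had 56, 25 and 14 counts against 1 in each knockout, and *Gm13483* 100, 20 and 21 against 1 in each. Of these 13, all but *4930542D17Rik* lost their call without knockout replicate 2.

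Heterozygous replicate 1 was the highest heterozygous library at most of the 94 genes that fell: in 36 of the 42 that rose from P18 to P28 in heterozygous testis and in 41 of the other 52. Over all 4618 features tested it was the highest in 1634. Summed levels of the round spermatid list were 1349, 1082 and 1135 CPM in heterozygous replicates 1 to 3 and 776 to 899 CPM in knockouts. This list holds *Tssk1*, itself one of the falls, with 283, 145 and 33.3 CPM in heterozygous replicates 1 to 3. Without *Tssk1* heterozygous replicate 1 would not be the highest for this list. The elongating spermatid list had 1921, 1399 and 1245 CPM against 927 to 1195 CPM. Their part in the falls was not tested. Of the 94 falls, 78 have a strand in RefSeq, and 42 of those (53.8%) were overlapped by a gene of the other strand, against 44.8% of all such features tested. Without the features so overlapped, 83 falls were called, of which 47 were genes and 34 intergenic loci, and 79 rises. No intergenic locus and no gene without a known strand could be removed in this way. The alternative therefore says nothing about those.

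**Figure D3:**
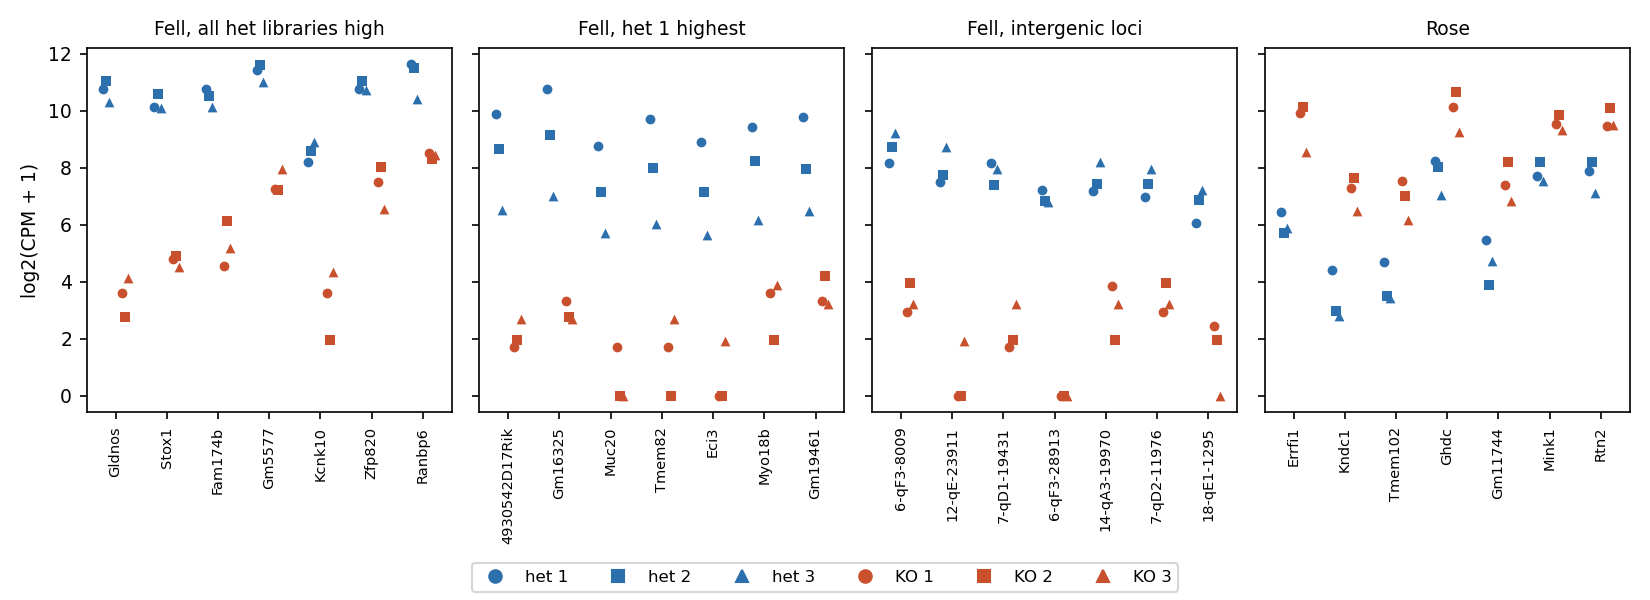
Levels as log2(CPM + 1) (y axis) of 28 called features in each of the 6 libraries, heterozygous in blue and knockout in orange, with the marker shape giving the replicate. In the second panel heterozygous replicate 1 (circle) is the highest and replicate 3 (triangle) the lowest of its group, while in the panels of the 7 leading genes and of the loci the 3 heterozygous libraries lie closer together.

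Reads from intergenic piRNA loci fell in knockout spermatocytes. Of the 100 loci 78 passed the low-count filter, 35 were lower and 1 was higher, and the median log2 fold change over the 78 was -1.19 (-0.11 over all features tested). Together the 100 loci took 1.68%, 1.47% and 1.70% of the counts of heterozygous replicates 1 to 3 and 0.849%, 1.07% and 1.02% in knockouts. These are 1.62% ± 0.128 (SD, n = 3) against 0.979% ± 0.115 (n = 3; exact permutation p = 0.1, two-sided, the smallest this design allows), with no overlap. Genic piRNA loci took 1.23% ± 0.156 against 1.53% ± 0.0481 (n = 3 each; exact permutation p = 0.1), and 2 of the 33 tested were lower, *pi-Rab11fip4* (-3.22) and *pi-1700016M24Rik* (-1.56). Without knockout replicate 2, 14 intergenic loci were called lower, and without knockout replicate 1 21. The summed share of the 100 loci leaned on a single locus, 13-qB1-1517, most of all in heterozygous replicate 1. It gave 2640, 681 and 331 counts in heterozygous replicates 1 to 3 and 75, 59 and 85 in knockouts.

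The locus with the smallest p was 6-qF3-8009, with 128, 123 and 304 counts in heterozygotes and 3, 5 and 3 in knockouts (-5.46 ± 0.46, adjusted p = 1.74e-06, edgeR). Another locus of the same band, 6-qF3-28913, had 66, 33 and 56 counts against 0 in every knockout, at least 47.7-fold lower. 12-qE-23911 had 80, 62 and 218 counts against 0, 0 and 1 (-7.86 ± 0.71). No library of one genotype reached the range of the other at any of these. 7-qD1-19431 had 128, 48 and 125 counts against 1, 1 and 3 (-5.65 ± 0.52), 14-qA3-19970 64, 50 and 150 against 6, 1 and 3 (-4.53 ± 0.51), and 7-qD2-11976 55, 50 and 127 against 3, 5 and 3 (-4.20 ± 0.47). Another locus of that band, 7-qD2-24830, had 52, 37 and 98 counts against 5, 5 and 6.

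Smaller counts gave the same picture at 18-qE1-1295 (29, 34 and 76 against 2, 1 and 0), 15-qD1-17920 (20, 27 and 81 against 0, 0 and 1), 9-qA5.3-1495 (42, 26 and 81 against 2, 3 and 4) and 2-qE1-35981 (49, 22 and 67 against 1, 2 and 4). At 11-qE1-9443 replicate 1 led, with 309, 100 and 88 counts against 18, 10 and 7. Over the 35 fallen loci heterozygous replicate 3 was the highest heterozygous library in 20, replicate 1 in 13 and replicate 2 in 2. Over all 4618 features tested these numbers were 1884, 1634 and 1100. Coordinates, strands and sequences of these loci were not used here, so an overlap with a gene could not be checked.

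The locus 13-qB1-1517 had by far the most reads of the 35, with 2640, 681 and 331 counts in heterozygotes and 75, 59 and 85 in knockouts (-3.96), and it is named here after its values were seen. It was the only 1 of the 21 tested loci not called lower at P14 or P18 in testis that fell in spermatocytes, and its log2 fold changes there were -0.60 and -0.41. Of the 44 tested loci called lower at both P14 and P18, 30 fell in spermatocytes (median of the 44 -2.97), and the 21 others had a median of -0.12. Across the 78 loci Pearson's r between the log2 fold changes of spermatocytes and testis was 0.63 at P14, 0.67 at P18 and 0.68 at P28. This is a description over loci, which share libraries and scaling.

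A fall of 4-fold or more at P18 did not always come with one in spermatocytes. Of the 40 such loci that were tested, 31 were lower, 8 were not called and 1 was higher. The last, 9-qC-10667, had 35, 25 and 73 counts in heterozygotes and 98, 114 and 72 in knockouts (1.27 ± 0.35, adjusted p = 0.0482, edgeR), while it fell at P18 (-3.93). This call was lost under the stricter low-count filter and without knockout replicate 1, 2 or 3 or heterozygous replicate 2, where every rise was a gene. In CPM the genotypes did not overlap, at 78.5, 86.2 and 143 against 220, 331 and 197. 15-qD1-4001 had 77, 32 and 49 counts against 98, 94 and 35 (0.63 ± 0.39) and -5.04 at P18. 14-qA3-3095 had 97, 66 and 114 against 122, 164 and 92 (0.58 ± 0.31) and -4.59 at P18. These loci were chosen after their values were seen, and the difference between cells and testis was not tested. Which strand was counted at them in spermatocytes is unknown, and the testis libraries do not keep the strand.

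**Figure D4:**
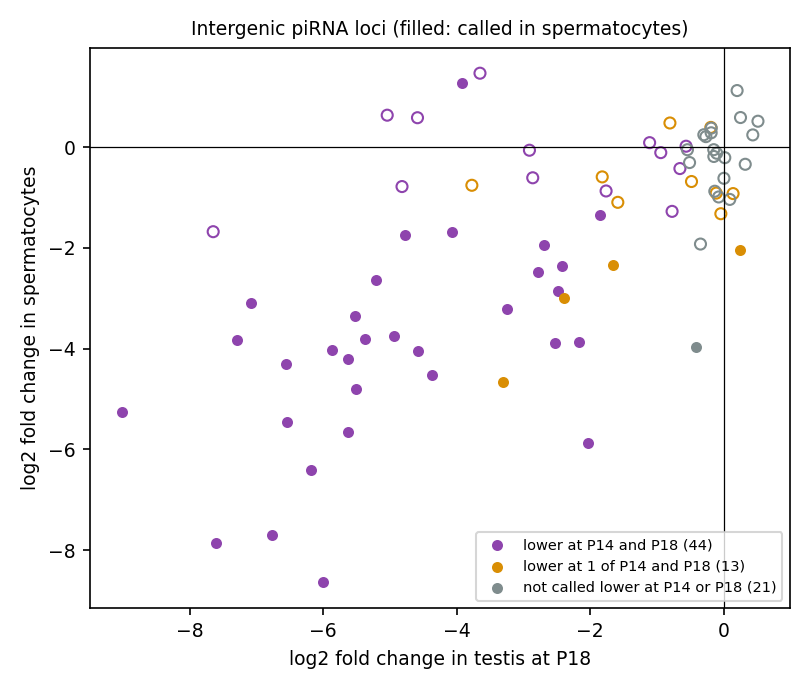
Log2 fold change of knockout over heterozygous in spermatocytes (y axis) against that in testis at P18 (x axis) for the 78 tested intergenic piRNA loci, coloured by their call in testis at P14 and P18 and filled where called in spermatocytes. Of the 44 loci lower at both ages 30 were also lower in spermatocytes, whereas most of the 21 grey loci lie near 0 on both axes.

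The rises were smaller than the falls. *Errfi1*, which encodes a feedback inhibitor of the EGF receptor and is overlapped by *1700045H11Rik*, had 38, 15 and 30 counts in heterozygotes and 429, 382 and 137 in knockouts (3.63 ± 0.41, adjusted p = 4.68e-05, edgeR). *Kndc1*, a Ras exchange factor gene, had 9, 2 and 3 against 70, 68 and 32 (3.68 ± 0.51). These were the 2 rises that stayed called without knockout replicate 2. *Ghdc* had 134, 75 and 67 counts against 497, 553 and 225 (2.28 ± 0.38), the kinase gene *Mink1* 92, 85 and 94 against 327, 319 and 232 (1.76 ± 0.29), and *Rarres2*, the gene of chemerin, 619, 469 and 493 against 1568, 1031 and 1082 (1.26 ± 0.27). No knockout library fell into the heterozygous range at these 5 features.

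*Tmem102* had 11, 3 and 5 counts against 83, 44 and 26 (3.06 ± 0.50) and is overlapped by *G630025P09Rik*. *Gm11744* had 19, 4 and 13 against 75, 101 and 41 (2.75 ± 0.46). The reticulon gene *Rtn2*, overlapped by *Gm51441*, had 106, 85 and 70 against 315, 378 and 263 (1.93 ± 0.33), and *Gpr179*, an orphan receptor gene, 204, 127 and 104 against 459, 533 and 342 (1.68 ± 0.33). The membrane metalloproteinase gene *Mmp25* had 13, 10 and 5 against 87, 73 and 27, the potassium channel gene *Kcnk12* 3, 2 and 0 against 31, 25 and 12, and *Utf1*, a spermatogonial gene, 6, 2 and 4 against 31, 28 and 11. Log2 fold changes of *Sh3tc2*, *Napsa*, *Ssh3*, *Osbpl6*, *Pcdhga11*, *Hhipl1*, *Helz2* and *Zfp784* were 1.59 to 2.49, and counts of *Pcdhga11* cannot be separated from other genes of its cluster that share exons. Knockout replicate 2 was the highest knockout library in 71 of the 92 genes that rose and replicate 3 the lowest in 74. Over all 4618 features tested this was so in 1703 and 1592. The median testis level of the 92 was 10.8 CPM, against 93.5 CPM over all genes tested.

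**Figure D5:**
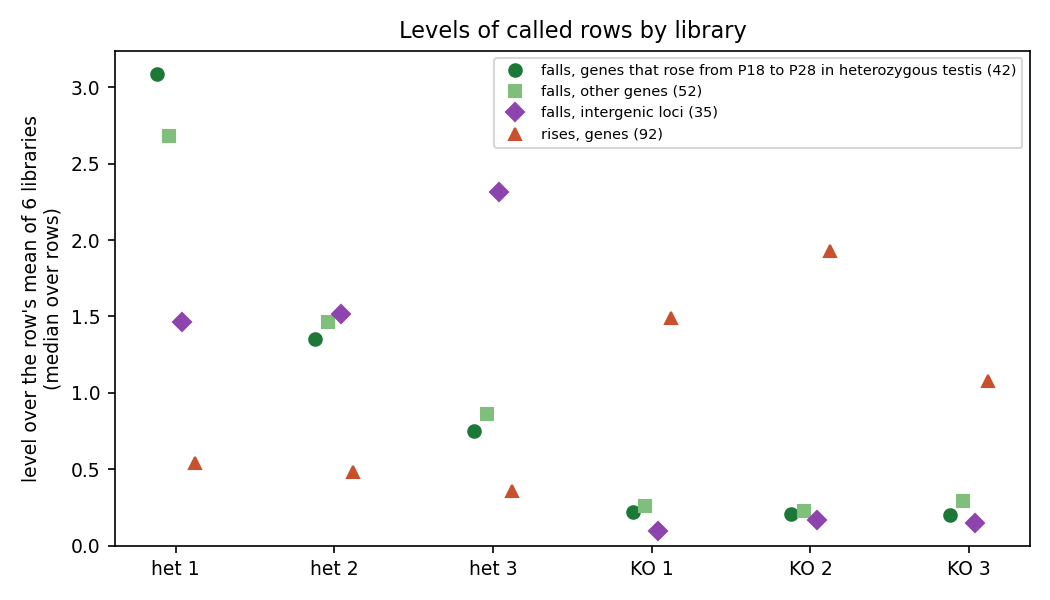
Level of each library relative to the feature's mean over the 6 libraries (y axis, median over features) for 4 sets of called features, with 1 marker per set and library. Genes that fell stand highest in heterozygous replicate 1, fallen intergenic loci in heterozygous replicate 3, and genes that rose in knockout replicate 2.

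Gene lists of germ cell functions gave almost no calls in the comparison of all 6 libraries. Over all features tested 2.84% were called lower and 2.01% higher, so lists this short would hold few calls at those shares. An absence of calls in the lists below therefore does not show that their genes were unchanged. Of the piRNA pathway list 21 of 26 genes were tested and none was called, although 20 had log2 fold changes below 0 (median -0.66, against -0.11 for all features). *Piwil1* had 100, 147 and 463 counts in heterozygotes against 88, 80 and 128 (-1.07 ± 0.41, adjusted p = 0.169, edgeR), and *Mov10l1*, the helicase that feeds precursors into processing, 19, 16 and 106 against 11, 16 and 12 (-1.59 ± 0.55). In both, the 2 genotypes overlapped and heterozygous replicate 3 was the highest. *Rnf17* (-1.19 ± 0.43) and *Pld6* (-1.04 ± 0.43), the mitochondrial nuclease, were not called either. Without heterozygous replicate 1, 4 genes of the list were called lower, among them *Mov10l1* (-1.87), *Piwil1* (-1.35) and *Rnf17* (-1.41). Summed levels of the list were 2448, 3085 and 4747 CPM in heterozygotes and 2157 to 2556 CPM in knockouts.

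None of the 10 tested genes of the meiotic prophase machinery was called, and all 10 lay below 0 (median -0.55). The nearest to the threshold was *Sycp1*, of the synaptonemal complex, with 52, 39 and 134 counts against 21, 9 and 37 (-1.56 ± 0.46, adjusted p = 0.0628, edgeR). The cohesin gene *Smc1b*, overlapped by *Fam118a*, followed (-0.90 ± 0.34). *Sycp1* was called lower without heterozygous replicate 1 (-1.69), without knockout replicate 3 (-2.17), with no low-count filter and under the stricter one. Late pachytene genes had 0 of 18 called (median -0.30), with *Hspa2* at -0.59 ± 0.33 and *Ldhal6b* at -1.04 ± 0.36. Without heterozygous replicate 1, 2 of the late pachytene list were called lower, *Ldhal6b* (-1.16) and *Piwil1*, which is on both lists. Meiotic division genes had 0 of 14 called (-0.34), germ cell transcription regulators 0 of 14 (-0.42), sperm energy metabolism genes 0 of 16 (-0.59), axoneme and cilium genes 0 of 26 (-0.25) and RNA storage and translation control genes 0 of 20 (-0.25). In the piRNA, prophase, late pachytene and division lists heterozygous replicate 3 had the highest summed level.

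Of the round spermatid list 1 of 13 was called, the kinase gene *Tssk1*, with 126, 42 and 17 counts against 4, 1 and 6 (-3.97 ± 0.71, adjusted p = 0.00308, edgeR). Its call was lost without knockout replicate 1 or 2. None of 8 elongating spermatid genes was called, among them *Oaz3* (-0.92 ± 0.28, adjusted p = 0.0742, edgeR), the protamine gene *Prm2* (-1.39 ± 0.60) and the transition protein gene *Tnp2* (0.63 ± 0.33). *Oaz3* was called lower with total counts and under the stricter filter, and *Prm2* without heterozygous replicate 3 (-1.78). Of spermatogonial markers 2 of 21 were tested: *Utf1* rose, as above, and *Dazl* did not pass the test (-1.15 ± 0.49). *Utf1* lost its call without knockout replicate 1, knockout replicate 2 or heterozygous replicate 2.

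Stress response genes had 0 of 8 called (median -0.30), DNA damage signalling genes 0 of 9 (-0.27) and histone variants and germ cell chromatin 0 of 12 (-0.02). Of p53 and apoptosis genes only *Mdm2* was tested (-0.10 ± 0.37). No interferon-stimulated, leukocyte, red blood cell, adipose or multicopy X and Y gene passed the low-count filter. Sertoli, Leydig and peritubular lists had 1 tested gene each: *Dhh* (1.03 ± 0.38, adjusted p = 0.151, edgeR), *Star* (-0.01 ± 0.26) and *Tagln* (0.32 ± 0.27). *Dhh* was called higher without heterozygous replicate 1 and with no low-count filter (1.14). Of the sex-chromosome genes silenced in pachytene *Huwe1* (-1.71 ± 0.60) and *Pdha1* (-0.56 ± 0.64) were tested and not called.

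Features called in spermatocytes were then looked up in the other libraries of the study, which came from other samples. Of the 35 fallen intergenic loci 31 were lower at P14 (0.906% of all features tested there), 33 at P18 (3.07%) and 33 at P28 (25.1%), with median log2 fold changes of -4.24, -4.77 and -4.26. Of all 78 intergenic loci tested in spermatocytes, 64.1%, 65.4% and 62.8% were lower at these 3 ages. Of the 94 genes that fell, 83 were tested in testis, and none was lower at P14, 7 at P18 and 45 (54.2%) at P28. Among all features tested in spermatocytes 34.2% were lower at P28. The 7 at P18 were *Zfp820*, *Ranbp6*, *Micall1*, *Tssk1*, *Lrrc18*, *Arc* and *Ankrd42*, named because they are so few.

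From P18 to P28 in heterozygous testis 42 of these 83 genes rose (50.6%; 31.4% of all features tested, 40.7% of those tested in spermatocytes) and 22 fell (30.8% of all features). Examples are *Gm16325* (5.04), *Gm19461* (5.11), *Mroh5* (6.93) and *Tssk1* (5.07). The fallen loci went the other way, with 24 of 35 lower from P18 to P28 (68.6%). So did intergenic loci at large, with 51 of the 78 tested in spermatocytes lower (65.4%). The genes on the other strand of the fallen genes moved strongly at P28: 29 of the 42 were tested there, 19 were lower (65.5%, against 33.1% of such genes over all tested features) and 5 higher. *Ccdc54*, opposite *4930542D17Rik*, was at -13.26, *4933417A18Rik*, opposite *Eci3*, at -11.59, *Tctex1d1*, opposite *BB031773*, at -11.34, and *Muc4*, opposite *Muc20*, at -5.06, whereas *Muc20* itself was at 0.03.

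Of the 92 genes that rose, 82 were tested in testis, where 17 (20.7%; 25.7% of all features) were higher and 9 lower at P28. Their share at P28 was thus no larger than that of all features. In testis *Errfi1* was at 0.04 at P18 and 0.51 at P28, and *Kndc1* at -0.01 and 0.31.

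In round spermatids 89 of the 94 fallen genes were tested, and 55 (61.8%) were lower and 1 higher, where 18.4% of all features were lower and 19.6% higher. Of the fallen loci 19 were tested, 16 were lower and 1 was higher. *Gldnos* was at -9.36, *Gm5577* at -4.78 and *Ranbp6* at -4.20, while *Zfp820* did not pass the test (-3.56, adjusted p = 0.0631, edgeR). The genes that rose were tested in 48 cases, of which 3 were higher and 7 lower. Features not called in spermatocytes also moved far in round spermatids. *Actl7b* (-6.96), *Prm2* (-6.44) and *Tnp2* (-5.45) were called lower there, *Dazl* (7.40) and *Hsp90ab1* (5.19) higher. Whether the knockout and heterozygous round spermatid fractions hold the same cells was not tested. Replicates of that table scattered widely, with a biological coefficient of variation of 0.703 against 0.314 in spermatocytes, and knockout replicate 2 had counts at 4246 features where the other 5 libraries had 11218 to 13601.

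The most abundant features did not differ detectably. *Gm166*, overlapped by the kinase gene *Phkg2*, had 34506, 31913 and 20661 CPM in heterozygotes and 39021, 26329 and 30383 CPM in knockouts (0.14 ± 0.28). *Ttc14* (0.55 ± 0.27), *Map3k12*, overlapped by *Pcbp2* (0.04 ± 0.25), *Acat3* (-0.26 ± 0.28) and *Dnajc1*, overlapped by *Mllt10* (0.26 ± 0.25), completed the 5, and the genotypes overlapped in each.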

How the data were processed

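Poly(A) RNA of purified spermatocytes was sequenced from stranded libraries, per the labels' protocols. Per the submitters' processing notes, reads were handled on build mm10 with Subread 1.4.6-p3 (featureCounts), TopHat2 2.1, Cufflinks and cutadapt 1.8.1. Their settings and the annotation are not given in the sources used here. The tables the authors deposited hold whole-number counts of reads for each gene and piRNA locus, with no normalization. Every column of the 3 RNA count tables used matched a sample by its title.

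Features were filtered with filterByExpr, scaled by TMM and tested with edgeR 4.0.16 in R 4.3.3 (quasi-likelihood F test, Benjamini-Hochberg adjustment over all tested features of a comparison, threshold 0.05). Fold changes are log2 of knockout over heterozygous with their standard errors, and levels are TMM-scaled CPM. Spermatocytes, round spermatids and testes were fitted separately, and the test was tried on simulated data. DESeq2 1.42.0, other scalings and filters, a block and left-out libraries were alternatives. Coordinates, strands and promoters came from RefSeq tables (GRCm38.p6), which matched 23902 of 24276 features and gave a strand for 17854. A gene counted as overlapping where it lies on the other strand over any base of a feature, and as close within 5000 bases.

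Named features are *Btbd18*, the 20 genes with the smallest p in each direction, the 12 such loci, the 4 of each gene list and the 5 most abundant features. Members, gene lists and tests were chosen with earlier results of these data known. The small RNA, ChIP-seq and ATAC-seq samples were not analysed here.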

Additional observations from a re-analysis of the deposited data

Results flagged for a closer look

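Of the named features called in spermatocytes, 4 were called in the opposite direction in another comparison, with all libraries of each genotype on opposite sides. The differences themselves were not tested. *Rtn2* rose in spermatocytes (log2 fold change 1.93) and was lower in knockout testes at P28 (-0.88), with 5.32 to 7.06 CPM against 10.99 to 11.80 CPM. *Gpr179* rose (1.68) and was lower in knockout round spermatids (-5.06; 0 to 13.1 CPM against 181 to 423 CPM), as was *Pcdhga11* (1.93 and -5.53; 0 to 2.90 CPM against 31.1 to 91.8 CPM). The intergenic locus 7-qD2-24830 fell in spermatocytes (-3.36) and was higher in knockout round spermatids (5.23; 45.6 to 220 CPM against 2.59 to 4.37 CPM), while it was lower in testis at P14 (-4.86), P18 (-5.53) and P28 (-4.26). Knockout replicate 2 of the round spermatids was the shallowest library of that table.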

How the results depend on the processing

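Among the named features that were called none changed direction under any alternative. DESeq2 gave 201 falls, which held 97 of the 131, and kept 83 of the 93 rises. With no low-count filter, edgeR gave 456 falls and 227 rises. A filter of 20 counts in 3 libraries left 23 intergenic loci called lower and kept 86 of the falls and 76 of the rises. Without features overlapped on the other strand, an alternative chosen after seeing the data, 83 falls were called. It could not remove any piRNA locus, since no strand was known for these. RLE or total-count scaling, or scaling without piRNA loci, kept 119 to 131 of the 131 falls and 76 to 92 of the 93 rises. The median log2 fold change of the tested features was -0.11, and -0.23 in DESeq2. With 1 library left out, falls ran from 22 to 269, rises from 2 to 274 and intergenic loci called lower from 14 to 35. Without knockout replicate 2, 32 of 53 called named features lost their call. Of the 57 named features that were not called, 9 gained a call without heterozygous replicate 1 and 6 with the replicate block, among them *Piwil1* and *Sycp1*. Of the 48 counts of calls per list and direction, 5 moved with DESeq2, 11 with no filter, 8 without heterozygous replicate 1 and 6 with the block. Deviations of same-numbered libraries correlated at 0.21, -0.02 and 0.27, so pairs 1 and 3 deviated together and pair 2 did not, and whether the numbers pair the libraries is not settled. The replicate block gave 192 falls and 220 rises. With DESeq2 in both fits, 124 falls were shared with testis at P28 (79 with edgeR) and 174 with round spermatids (72). The cause was not tested. At 0.322 to 0.514 M counts per library, most features had too few reads to be tested.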

Other observations

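Chromosome X gave few reads, and whether its silencing in pachytene spermatocytes has a part in this was not tested. Of its 1054 features 681 had no count in any library and 4 passed the low-count filter. Of all 24276 features 8261 had no count and 4618 passed. None of the 4 X-linked features was called (edgeR, median log2 fold change -0.85, 3 below 0). Summed levels of all X-linked features were 1640, 817 and 1166 CPM in heterozygotes and 411, 881 and 296 CPM in knockouts, so the genotypes overlapped. Of 80 cytoplasmic ribosomal protein genes 11 were tested and none was called (median -0.24).

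Some called features lie side by side. *Kndc1* (chromosome 7, 139894696 to 139941540) and *Utf1* (139943856 to 139945112), both on the plus strand and both higher in knockouts, follow each other. *Suv39h2*, a histone methyltransferase gene, and *Dclre1c*, the gene of the nuclease Artemis, overlap on opposite strands, and reads counted at both fell (-1.63 and -1.97).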
